A study of Mus musculus with 16 samples.

Results

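Cytosolic ribosomal protein genes encode the protein subunits of the ribosome that translates nuclear-encoded messenger RNA. They were followed across the fed and fasted quadriceps of wild-type mice and of mice whose skeletal muscle lacks FoxO1, FoxO3 and FoxO4. Members were defined by symbol: Rpl or Rps followed by a digit, plus Rplp0, Rplp1, Rplp2 and Rpsa, without the Rps6k kinases, Rps19bp1 and named pseudogene copies. This choice was made with earlier results of these data known. The array carried 87 such genes on 175 probes. Of these, 86 were tested, among 21281 features tested in all, and Rpl10l, a paralogue of Rpl10, was not well above background on every array of any group. The 21281, called genes below, are 14150 with a symbol and 7131 transcripts that the array lists only by an accession or probe.

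The tissue was quadriceps muscle of male mice aged 8 weeks, held with free access to food or fasted for 24 h. Both states were sampled in wild-type mice (WT) and in mFoxO1,3,4-/- mice (labelled mFoxO-TKO), in which Cre recombinase under the human skeletal α-actin promoter deletes the 3 FoxO genes in skeletal muscle. Each of the 4 groups had 4 one-colour Agilent arrays, 16 in all, on 2 slides that held replicates 1 and 2 (slide 1) and replicates 3 and 4 (slide 2) of every group. Non-muscle cells of the knockout tissue still carry the FoxO genes. The labels do not state that each array holds a different mouse, so p-values measure the spread between these samples.

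Values are log2 signals minus the 75th percentile of their array, so they are levels relative to the rest of the array, and an equal change of all transcripts would not be seen. Differences between groups are log2 differences from a limma fit over all 16 arrays, and passing means an adjusted p below 0.05, with the adjustment made over all genes tested. Foxo1 and Foxo4 were lower in mFoxO-TKO than in WT muscle in both feeding states, Foxo1 by -1.78 fed and -3.42 fasted (adjusted p 0.000307 and 1.16e-07) and Foxo4 by -4.08 and -4.25 (adjusted p 3.38e-07 and 1.08e-07). The Foxo3 probe passed in neither knockout comparison, and whether it lies in the deleted part is not given in the sources used here. All 11 fibre markers, Acta1, Ckm and Myh4 among them, were kept after the filter on dim probes. By limma 0 of the 11 passed in any of the 5 contrasts, and at most 1 had an unadjusted p under 0.05. In quadriceps taken whole, fewer cells of a type and less RNA per cell cannot be told apart.

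As background, a ribosome has a large and a small subunit, and each subunit carries about equal copies of its proteins, so the genes for these proteins are usually expressed together. Many of their messenger RNAs begin with a C followed by a run of pyrimidines, the TOP tract. Through this tract the growth-sensing kinase mTORC1, acting by way of the RNA-binding protein LARP1, adjusts how well they are translated. In muscle, food withdrawal lowers insulin, which releases FoxO factors into the nucleus and lowers mTORC1 activity. A microarray measures the amount of messenger RNA and not its translation.

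Start-site sequences are from the RefSeq promoter table (GRCm38.p6), which held 66 of the 87 members. A tract, defined as a C followed by at least 8 bases that are C or T, was looked for on the transcript strand from 30 bases before to 30 bases after the annotated start. It was found in 30 of the 66 members (45.5%) and in 3790 of 27025 genes with a promoter entry (14%). The windows of 30 bases below show Rps6, Rpl13a, Rps27 and Rpl11 as members with a tract, Rpl3l and Rpl22l1 as members without one, and Rps23rg1 and Rpl7l1, the 2 members that passed in the comparisons that follow. Each window starts 10 bases before the annotated start, except that of Rpl11, which starts at base 9 after it and has its tract from base 14. Capitals mark the tract.
Rps6: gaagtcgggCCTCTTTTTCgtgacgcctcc
Rpl13a: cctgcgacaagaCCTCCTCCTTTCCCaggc
Rpl11: gaagtCTCCCTCTCTCTTCCTgttctccac
Rps27: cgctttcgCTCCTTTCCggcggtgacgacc
Rpl3l: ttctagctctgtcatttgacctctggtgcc
Rpl22l1: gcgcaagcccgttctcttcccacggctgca
Rps23rg1: gcagagagtCTTTCTCTCaccccagataaa
Rpl7l1: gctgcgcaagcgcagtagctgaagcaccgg
They lie at chr4:86857348-86857377 (Rps6, minus strand), chr7:45128726-45128755 (Rpl13a, minus strand), chr4:136053355-136053384 (Rpl11, minus strand), chr3:90213629-90213658 (Rps27, minus strand), chr17:24727816-24727845 (Rpl3l, plus strand), chr3:28805498-28805527 (Rpl22l1, plus strand), chr8:3567988-3568017 (Rps23rg1, plus strand) and chr17:46782637-46782666 (Rpl7l1, minus strand). The tract of Rps6 and that of Rps23rg1 both begin 1 base before the annotated start, and Rpl7l1 has none in its window. Of the 2 members that passed, 1 thus has a tract and the other has none. The letters GTAAACA, a core sequence that FoxO factors bind, were present on either strand of the 300-base promoter of 1 of 66 members (1.52%, Rpl41) and of 1095 of 27025 genes (4.05%). They were not in the promoters of Rps23rg1 or Rpl7l1.

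In WT muscle few ribosomal protein genes passed for fasting, while many other genes did. Of 21281 genes, 24.9% passed, but only 2 of 86 members did (2.33%): Rps23rg1 rose and Rpl7l1 fell. Among the 14150 genes with a symbol, as all members have, 29.4% passed. By limma, 0 of the 76 genes for core subunit proteins passed (42 large-subunit, 31 small-subunit and 3 stalk genes). In the same fit 2 of the 76 (2.63%) had an unadjusted p under 0.05, against 35.3% of all genes. The median difference over the 86 members was 0.14, against -0.02 over all genes, and 74 members lay above 0. It was 0.13 for the large subunit and 0.18 for the small subunit. Under other ways of scaling the arrays the median over the 86 members lay between 0.04 and 0.18.

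The intervals limit how large an unseen change could be. The 95% interval of the WT fasting difference lay within a 1.5-fold change in either direction for 59 of the 86 members and within a 2-fold change for 79. Among all genes tested these shares were 33.3% for 1.5-fold, against 68.6% of the members. The median standard error was 0.15 for members and 0.19 for all genes. In data simulated with the residual spread of all genes, the same fit called 14% of 50 genes given a log2 change of 0.5. It called 53% of 100 genes given a change of 1. Far fewer genes changed there than passed in WT fasting, so the adjusted threshold was stricter. As members also had a smaller median standard error, these shares do not give the share that would be called among members.

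**Figure D1:**
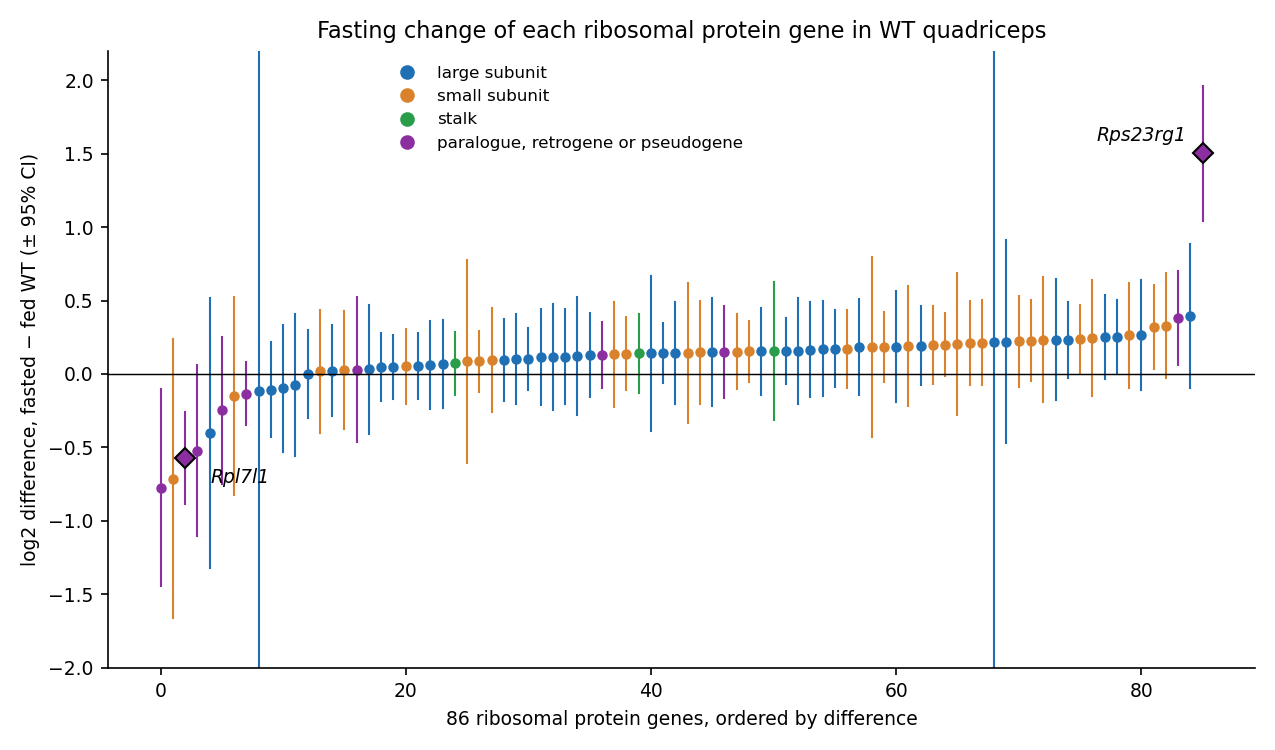
Each point is 1 of the 86 tested ribosomal protein genes, ordered along the x axis, with its log2 difference between fasted and fed WT quadriceps on the y axis and its 95% interval as a bar; diamonds mark the 2 genes that passed, and the intervals of Rpl11 and Rpl21 run past the axis. Most points lie slightly above 0 with intervals that cross it, while Rps23rg1 stands at 1.50 and Rpl7l1 at -0.57.

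Rps23rg1 is a mouse retrogene derived from the messenger RNA of the small-subunit gene Rps23. Its values were 0.51, 0.18, 0.56 and 0.35 on the fed WT arrays and 2.24, 1.77, 1.78 and 1.83 on the fasted WT arrays. The 2 groups did not overlap, every fasted array standing more than 1 log2 unit above every fed array. The rise was 1.50 ± 0.21 (SE), or 2.83-fold, with an adjusted p of 0.000147. Rps23 itself, named here after its values were seen, differed by 0.23 ± 0.20 (adjusted p 0.455). Whether the 2 genes differ in their response was not tested, and the retrogene rests on 1 probe.

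Without the FoxO genes the same retrogene was lower in fasted muscle. The mFoxO-TKO arrays read 0.37, -0.33, 0.11 and -0.09 when fed and 0.63, -0.06, 1.10 and 0.58 when fasted. These 2 groups overlap, and the difference of 0.55 ± 0.21 had an adjusted p of 0.121. Without fasted mFoxO-TKO replicate 2, the array at -0.06, it was 0.76 with an adjusted p of 0.0206. All 4 fasted mFoxO-TKO arrays lay below all 4 fasted WT arrays, a fall of 1.34 ± 0.21 (adjusted p 0.000677), whereas the fed genotypes differed by -0.39 ± 0.21 (adjusted p 0.555). The interaction, which tests whether fasting acted differently in the 2 genotypes, was -0.95 ± 0.30 with an adjusted p of 0.142. It did not pass, nor did it with slide as a block (adjusted p 0.109), but it passed with replicate number as a block. Within slide 1 the WT fasting difference was 1.66 and within slide 2 it was 1.35. Between fasted genotypes the values were -1.72 within slide 1 (adjusted p 0.064) and -0.96 within slide 2.

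Rpl7l1 encodes a relative of the large-subunit protein Rpl7 that belongs to the machinery of ribosome assembly. Its values were -0.62, -0.84, -0.66 and -0.62 on fed WT arrays and -1.48, -1.21, -1.26 and -1.06 on fasted WT arrays. The groups were separate, with every fasted array lower. The fall was 0.57 on the log2 scale (SE 0.15, adjusted p 0.010). With slide 1 alone, 2 arrays a group, the difference was -0.62 with an adjusted p of 0.124, and with slide 2 alone it was -0.52. In mFoxO-TKO muscle fasting gave -0.12 ± 0.15 (adjusted p 0.678), and the interaction of 0.45 ± 0.21 did not pass (adjusted p 0.382). Rpl7, which encodes the subunit itself, differed by 0.17 ± 0.12 in fasted WT muscle (adjusted p 0.353).

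**Figure D2:**
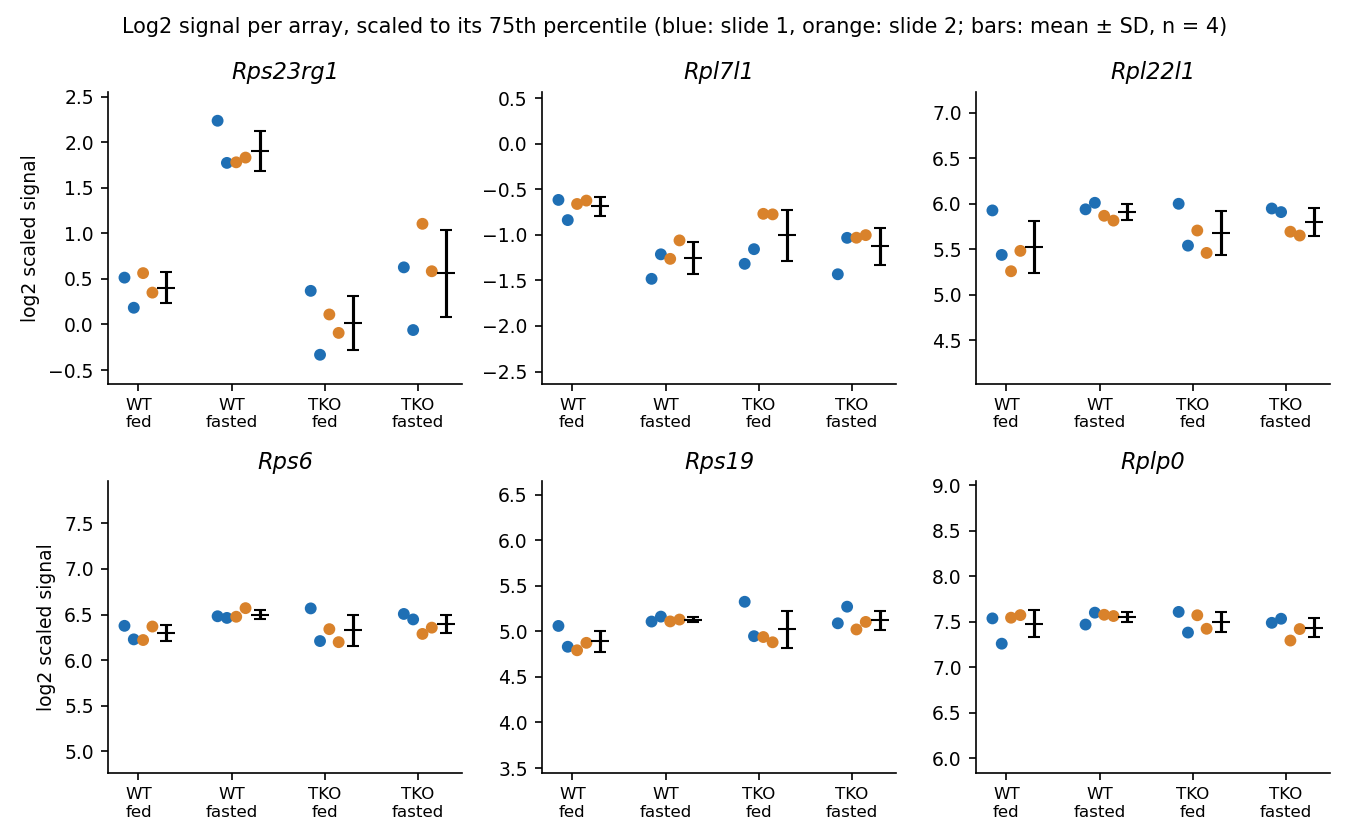
Each panel plots log2 signal relative to the array's 75th percentile for 1 gene on the 4 arrays of each group, coloured by slide, with the group mean ± SD; all panels span the same 3.2 log2 units. Fasted WT arrays of Rps23rg1 (1.77 to 2.24) sit above all others, whereas Rps6, Rps19 and Rplp0 stay within a narrow band in the 4 groups.

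The stalk proteins Rplp0, Rplp1 and Rplp2, which recruit the translation factors to the large subunit, did not pass for fasting in either genotype. Rplp0, the scaffold of the stalk and a common reference gene, read 7.54, 7.26, 7.54 and 7.57 on fed WT arrays and 7.47, 7.60, 7.58 and 7.56 on fasted WT arrays. The fed and fasted values overlap, and the difference was 0.07 with a 95% interval from -0.14 to 0.29. In mFoxO-TKO muscle the fasting difference of Rplp0 was -0.06, with an interval from -0.28 to 0.15. For Rplp1 the WT fasting difference was 0.14 ± 0.12 (adjusted p 0.480), and for Rplp2 it was 0.16 ± 0.22 (adjusted p 0.679). Rplp2 ran from 7.65 to 8.72 on the fasted mFoxO-TKO arrays and from 7.62 to 8.52 on the fed mFoxO-TKO arrays.

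Among small-subunit genes, Rps6 encodes the protein that S6 kinases phosphorylate, and Rps19 is the gene most often mutated in Diamond-Blackfan anaemia. Rps6 read 6.38, 6.23, 6.22 and 6.37 on fed and 6.48, 6.46, 6.48 and 6.57 on fasted WT arrays. Every fasted array was above every fed one, by 0.20 ± 0.10 on average, yet the difference did not pass (adjusted p 0.174). For Rps19 the WT values were also separate, 4.79 to 5.06 fed against 5.11 to 5.16 fasted, with a difference of 0.24 ± 0.11 (adjusted p 0.135). In all, 8 members lay wholly higher and 2 wholly lower in fasted WT muscle, 10 of 86, while groups did not overlap for 29.1% of all genes. Apart from Rps23rg1, the wholly higher members included Rpl36, Rpl7, Rps12, Rps6, Rps13 and Rps19, genes of both subunits. Their differences were 0.16 to 0.24, and none passed by its brightest probe. Rps13 had no value on fasted WT replicate 1, so its groups were compared without that array. Another probe of Rpl36 and another of Rps6 did pass, as given below for all kept probes.

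Rpsa, a small-subunit protein also known as a laminin receptor, differed by 0.10 ± 0.16 in WT fasting (adjusted p 0.742). Rps27a, which is made as a fusion with ubiquitin, differed by 0.13 ± 0.17 (adjusted p 0.634). Rps27 was among the members nearest to passing in WT, at 0.32 ± 0.13 (adjusted p 0.095). Its fed arrays read 7.26, 7.14, 6.87 and 6.99 and its fasted arrays 7.48, 7.52, 7.29 and 7.26, so the groups meet only at their edges. With slide as a block its adjusted p was 0.00919, and Rps18 and Rpl22l1 passed as well, which gave 4 members higher and 1 lower. Over all genes 6588 of 21281 passed in that fit.

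Some large-subunit proteins have known roles outside the ribosome. Rpl5 and Rpl11 bind the p53 regulator Mdm2 as part of a complex with 5S ribosomal RNA, and Rpl13a is known for silencing translation in inflammation and as a reference gene. Rpl5 read 4.86 to 5.30 on fed and 5.01 to 5.16 on fasted WT arrays, a difference of 0.10 ± 0.13 (adjusted p 0.658). Rpl13a differed by -0.11 ± 0.15 (adjusted p 0.680). In mFoxO-TKO muscle, Rpl5 differed by 0.30 ± 0.13 with fasting (adjusted p 0.170), and Rpl13a by 0.13 ± 0.15 (adjusted p 0.645).

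The largest differences among core members each included 1 low spot. The brightest Rpl11 probe read -5.78 on fasted mFoxO-TKO replicate 1 and 7.10 to 7.33 on the other 3 arrays of that group. Rpl21 read -4.40 there and 5.51 to 5.61 on the other 3. Both spots lie in an area of that array in which 3849 spots were low relative to the other arrays, and 7 members have a spot in it. The fit gave fasting differences of -3.26 for Rpl11 and -2.34 for Rpl21 in mFoxO-TKO, with adjusted p of 0.484 and 0.476. With the spots of that area left out, they were -0.02 for Rpl11 and 0.15 for Rpl21. The other 2 probes of Rpl11 gave 0.03 and 0.20 on all arrays. Missing values, from spots marked as uneven, also occur: Rpl11 had 3 and Rpl21 had 1 among the 16 arrays, and the fit used the remaining arrays.

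Rpl27a, a large-subunit gene, had 1 low value in WT muscle. It read 4.17 on fasted WT replicate 1 and 6.58 to 6.73 on the others, and its difference went from -0.40 to 0.22 without it.

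**Figure D3:**
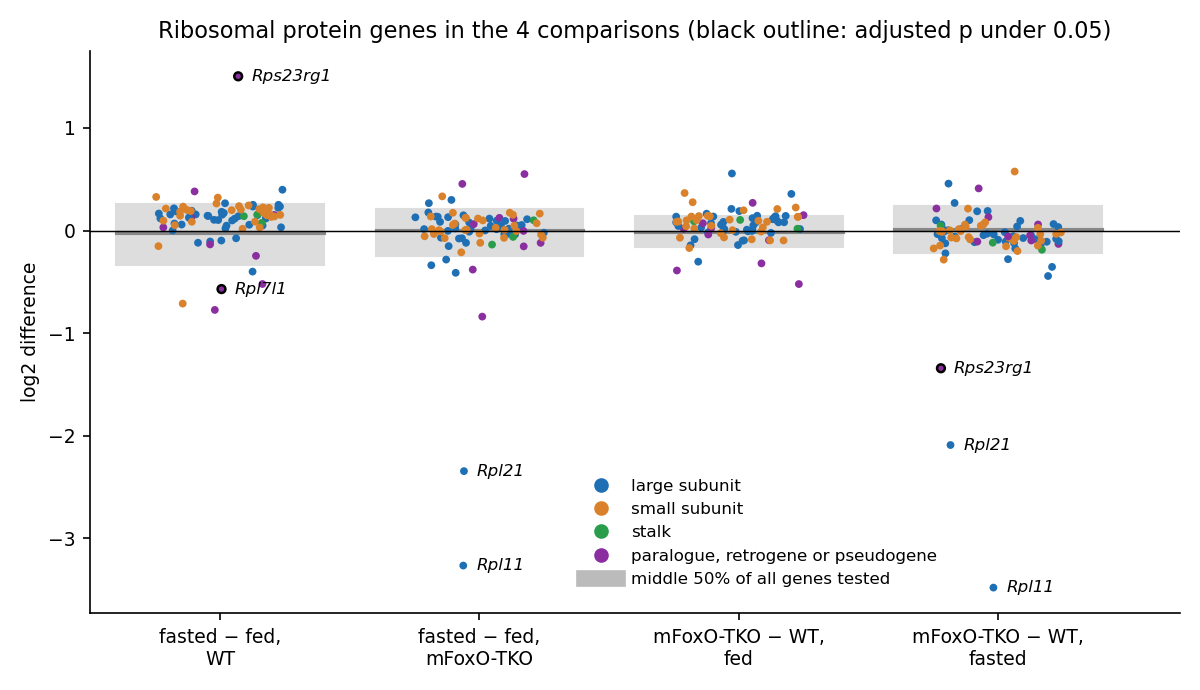
Points give the log2 difference of each of the 86 members in the 4 comparisons between groups, coloured by class; grey boxes span the middle 50% of all genes tested and black outlines mark members that passed. The cloud of members is narrow and close to 0 in every comparison, with Rps23rg1 and Rpl7l1 the outlined points and Rpl11 and Rpl21 displaced by the single low spots described above.

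In mFoxO-TKO muscle, 0 of 86 members passed for fasting by limma, while 11.1% of all genes did. The median member difference was 0.02, as against 0.00 for all genes. In that fit 3 members (3.49%) had an unadjusted p under 0.05, against 24.7% of all genes. Of the 86 intervals, 68 lay within a 1.5-fold change. The member furthest down apart from Rpl11 and Rpl21 was Rps4l, a transcribed pseudogene by its RefSeq type, related to Rps4x. It read 0.20, 0.56, 0.25 and 0.08 fed and 0.07, -0.36, -1.57 and -0.39 fasted, so that the groups were just separate. Its difference was -0.84 ± 0.27 (adjusted p 0.063). It was -0.50 without the lowest array and -1.05 without fasted mFoxO-TKO replicate 1, where its adjusted p was 0.0203. Furthest up were Rps23rg1, Rpl3l at 0.45 ± 0.21 (adjusted p 0.204) and Rps14 at 0.33 ± 0.29 (adjusted p 0.533). Only 1 of 86 members, Rps4l, had groups that did not overlap, against 17.3% of all genes.

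In fed muscle the genotypes were compared without the effect of fasting. By limma 0 of 86 members passed, where 1.48% of all genes did. In that fit 4 members (4.65%) had an unadjusted p under 0.05, against 11.5% of all genes. The median was 0.07 (all genes -0.01). The highest members were Rpl3 at 0.56 ± 0.23 (adjusted p 0.338), Rpsa at 0.37 ± 0.16 (adjusted p 0.410) and Rpl19 at 0.36 ± 0.17 (adjusted p 0.476). The lowest were Rpl3l, Rps23rg1 and Rpl7l1, the last at -0.32 ± 0.15 (adjusted p 0.419). Groups did not overlap for 1 member, Rpl3l, against 10% of all genes. With 315 genes called in all, a member count of 0 is close to what the background share gives.

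In fasted muscle 12.5% of all genes passed between the genotypes, and 1 of 86 members did, Rps23rg1, with a median of -0.05 over members and 0.01 over all genes. The groups did not overlap for 3 members, all lower in mFoxO-TKO, against 16% of all genes: Rps23rg1, Rps27 at -0.28 ± 0.13 (adjusted p 0.205), and Rpl11 with 2 fasted WT values and the low spot. Below Rps23rg1, the lowest members were Rpl11 at -3.48 and Rpl21 at -2.09, which were -0.24 and 0.40 without the low-signal area. Among the highest were Rpl27a and Rpl39l at 0.46 and 0.41. Without the low WT array named above, Rpl27a stood at -0.17.

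In the fit with no block, the interaction passed for 0 of 86 members by limma and for 2.2% of all genes. There 2 members (2.33%) had an unadjusted p under 0.05, against 12.8% of all genes. The median over members was -0.11 and over all genes 0.02, and 18 of 86 members (20.9%) were above 0, against 51.8% of all genes. Among the highest were Rpl7l1 and Rpl3l at 0.45 and 0.42. The 3 lowest were Rpl11, Rpl21 and Rps23rg1. Apart from Rps23rg1 and Rpl7l1, these are members with a low spot or, for Rpl3l, a low fed mFoxO-TKO array.

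The per-array level of the members overlapped between all 4 groups. The median over members of the value minus the gene's own mean was -0.07 ± 0.10 (SD, n = 4) in fed WT, 0.07 ± 0.07 in fasted WT, 0.00 ± 0.21 in fed mFoxO-TKO and 0.02 ± 0.14 in fasted mFoxO-TKO. In fed WT the arrays read 0.07, -0.13, -0.14 and -0.07, and in fasted WT 0.10, 0.16, 0.03 and 0.00. One fed WT array thus stood among the fasted ones. In fed mFoxO-TKO the range was widest, from -0.21 to 0.30.

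Members moved together within groups, partly by slide. After removing group means, the mean correlation between pairs of members over the 16 arrays was 0.40 for the 68 members with all values. It was 0.49 for mitochondrial ribosomal protein genes, 0.40 for translation initiation factors, 0.19 for ribosome assembly genes and 0.08 for all genes. Genes on an array share its hybridisation, and these values carry no test. Slide 1 was above slide 2 in all 4 groups for 52 of 86 members (60.5%), against 28.0% of all genes. The share was 64.9% for mitochondrial ribosomal protein genes and 69.4% for translation initiation factors, so it was not particular to the members. The median over members of slide 1 minus slide 2 was 0.18, which is larger than the median fasting difference in either genotype. Within slide 1 the median WT fasting difference of members was 0.18 and within slide 2 it was 0.09.

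**Figure D4:**
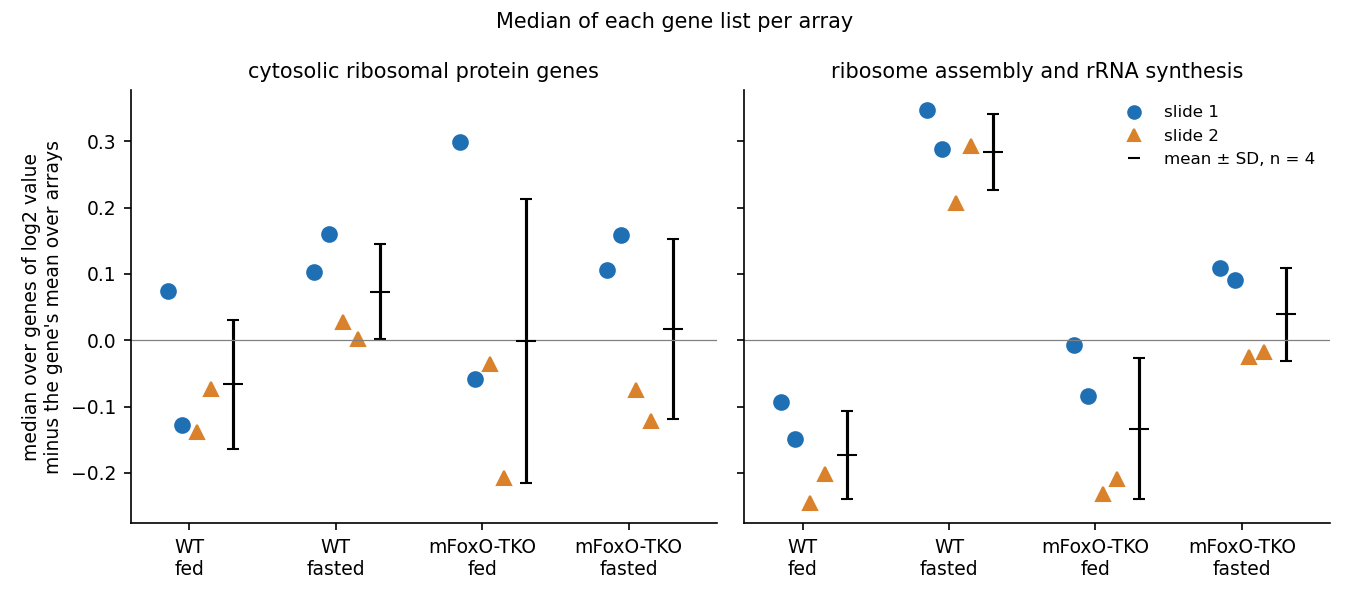
The left panel gives, for each array, the median over the cytosolic ribosomal protein genes of the log2 value minus the gene's mean over arrays, and the right panel the same for ribosome assembly and rRNA synthesis genes; circles are slide 1, triangles slide 2, and bars the mean ± SD of 4 arrays. Ribosomal protein medians overlap between all groups, whereas the assembly genes of fasted WT (0.21 to 0.35) lie above every other array.

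Paralogues of ribosomal proteins replace the main protein in some tissues, and Rpl3l takes the place of Rpl3 in mature striated muscle. The balance of a pair was taken as the log2 difference between the 2 probes on each array, and only its change between groups was read. In 28 comparisons of 7 pairs, 0 passed an exact two-sided permutation test after adjustment. Of these, 3 had an unadjusted p of 0.0286, the smallest that 4 against 4 arrays can give. With that floor, none could pass after adjustment unless many reached it together, so the count of 0 cannot decide whether a balance changed. Rpl3l relative to Rpl3 differed by -0.42 in WT fasting (exact p 0.0857) and by -1.13 in the fed knockout (exact p 0.0571). On fed mFoxO-TKO replicate 1 Rpl3l read 5.22, while the other 3 arrays read 6.30 to 6.36 and the 3 fed WT arrays with a value 6.46 to 6.68. Without that array the balance differed by -0.73, and Rpl3l itself by -0.24 in place of -0.52.

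The 3 pairs at the smallest exact p were all lower in fasted WT muscle. Rpl7l1 relative to Rpl7 differed by -0.74, Rps27l relative to Rps27 by -0.46 and Rps4l relative to Rps4x by -0.67, each with an adjusted p of 0.228 over the 28 comparisons. Rps27l is a p53-responsive relative of Rps27, and its own WT fasting difference was -0.14 ± 0.10 (adjusted p 0.381). Rps4x, the X-linked small-subunit gene, differed by 0.15 ± 0.10 (adjusted p 0.284). In these 3 pairs the main gene had a positive difference and its relative a negative one, and of the 6 genes only Rpl7l1 passed in the fit over all genes. Rps4l had a WT fasting difference of -0.52 ± 0.27 (adjusted p 0.192).

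Rpl22l1, the paralogue of Rpl22 that rises when Rpl22 is lost, read 5.93, 5.44, 5.26 and 5.48 on fed and 5.94, 6.01, 5.87 and 5.82 on fasted WT arrays. The first fed array overlaps the fasted range, and the difference was 0.38 ± 0.15 (adjusted p 0.078, and 0.0158 without that array). For Rpl22 the probes disagreed: the brightest gave 0.15 ± 0.17 in WT and -0.03 ± 0.17 in mFoxO-TKO fasting, while the dimmer one gave 0.31 ± 0.10 and 0.42 ± 0.10 (adjusted p 0.0352 and 0.0157 among probes). Rpl39l, a paralogue abundant in testis, differed by -0.77 ± 0.31 in WT fasting (adjusted p 0.089), with 1 fasted array at -3.76 and the other 3 from -2.77 to -2.01. It was -0.43 without that array, and -1.01 with an adjusted p of 0.0283 without fasted WT replicate 4. Rpl39 differed by 0.17 ± 0.15. Rpl36al and Rpl36a, which encode nearly the same protein, differed by -0.25 ± 0.23 and -0.08 ± 0.23, and the Rpl10 probe by 0.18 ± 0.15.

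Other probes of the members were fitted as well. Over the 171 kept probes of members, 6 passed for WT fasting (3.51%), 5 of them higher, with a median of 0.12, and 1 passed for mFoxO-TKO fasting. The 6 belong to Rpl22, Rpl23, Rpl36, Rps6, Rps23rg1 and Rpl7l1. Rpl23 shows how far probes of a gene can differ: 1 probe gave 0.45 ± 0.10 (adjusted p 0.00378), and the other 2 gave 0.00 and 0.10. Ribosomal protein genes have many processed pseudogenes and copies of similar sequence, so which transcripts a probe detects is uncertain.

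In fasted WT muscle, genes whose products build ribosomes passed in larger numbers. Of 69 genes of ribosome assembly and rRNA synthesis, 38 rose and 1 fell (56.5%, against 24.9% of all genes), with a median of 0.48. Among them Myc, a transcription factor that drives ribosome production, rose by 1.87 ± 0.26, and Taf1d, a subunit of the RNA polymerase I factor SL1, rose by 1.77 ± 0.13. Sbds, which readies the large subunit for translation, rose by 1.57 ± 0.13, and Gnl3, a nucleolar GTPase, by 1.57 ± 0.23. In mFoxO-TKO fasting 9 of the 69 rose and 0 fell (13%, close to the 11.1% of all genes), with Ddx21, a nucleolar helicase, at 0.79 ± 0.16. Between fasted genotypes 18 were lower and 0 higher in mFoxO-TKO (26.1%, against 12.5% of all genes), among them Myc at -1.09 ± 0.26 and Sbds at -1.01 ± 0.13. No test of assembly against subunit genes was made, since both lists were chosen with results known. With slide 1 alone, 2 arrays a group, 8 of the 69 passed in fasted WT muscle. In that fit 1366 of 19588 genes passed, against 5303 of 21281 over all arrays.

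Of 36 translation initiation factors, 10 rose and 1 fell in fasted WT muscle (30.6%, near the 24.9% of all genes), Eif4g3, a scaffold of the cap-binding complex, rising by 0.89 ± 0.11 and the cap-binding protein Eif4e falling by 0.94 on the log2 scale (SE 0.19). Of 20 elongation and other TOP-type genes, 2 rose and 1 fell, or 15%, below that share. Those were Nap1l1, a histone chaperone, at 0.75 ± 0.13, Naca, a chaperone of nascent chains, at 0.49 ± 0.11, and Vim, the filament protein vimentin, at -0.42 ± 0.14. Fau and Rack1 also encode ribosomal proteins but lie outside the symbol rule. Neither passed in any of the 5 contrasts, and their WT fasting differences were 0.17 ± 0.16 and 0.11 ± 0.13 (adjusted p 0.493 and 0.629). In WT fasting 5 of 77 mitochondrial ribosomal protein genes passed, 3 higher and 2 lower, with a median of -0.07. That split was 3 and 17 in the authors' value table and 2 and 12 after quantile normalization. Mrpl41, a protein of the mitochondrial large subunit, was the highest of these at 1.15 ± 0.15.

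Genes of mTORC1 and TOP control moved in both directions. In WT fasting 9 of 24 rose and 4 fell (54.2%, against 24.9% of all genes), led by Ddit4, an inhibitor of mTORC1 also called REDD1, at 3.82 ± 0.42 and Sesn1, a sestrin that restrains mTORC1, at 3.12 ± 0.27. Eif4ebp1, which holds Eif4e away from the cap, rose by 2.18 ± 0.28. Mtor itself rose by 0.90 ± 0.11, and Sesn3 fell by 0.92 on the log2 scale (SE 0.11). In mFoxO-TKO fasting 6 of the 24 rose and 1 fell (29.2%, against 11.1% of all genes). Passing there were Ddit4 at 3.04 ± 0.42, Eif4ebp1 at 1.17 ± 0.255, Mtor at 0.95 ± 0.11 and Sesn3 at -0.87 ± 0.11, among others. Sesn1, at 0.87 ± 0.27, did not pass there (adjusted p 0.0527). Between fasted genotypes 10 were lower and 2 higher in mFoxO-TKO (50%, against 12.5% of all genes), Sesn1 at -2.75 ± 0.27 and Eif4ebp1 at -1.90 ± 0.28 among them, and Larp1, the TOP-binding protein, at -0.51 ± 0.16 (adjusted p 0.0493).

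**Figure D5:**
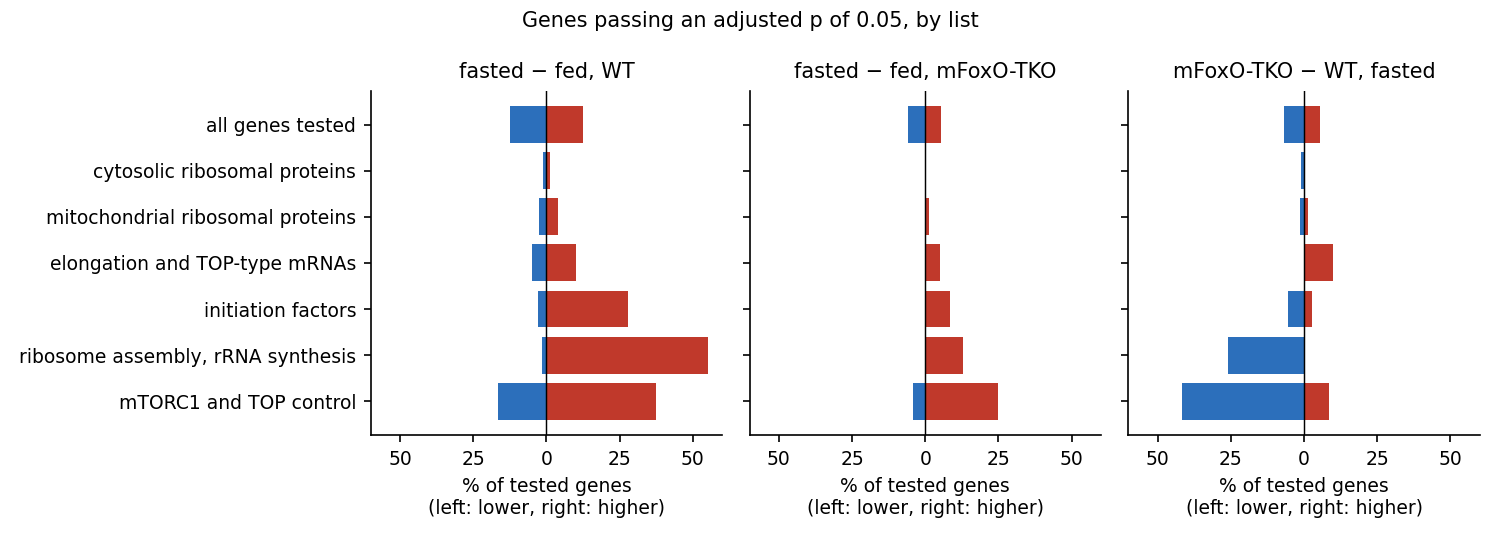
Bars give the percent of tested genes in each list that passed, to the right for higher and to the left for lower, in 3 comparisons; the top bar is all genes tested. In fasted WT muscle 56.5% of ribosome assembly genes passed and 2.33% of cytosolic ribosomal protein genes did, with 24.9% for all genes.

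Members with a start-site tract and members without one had like medians in WT fasting, 0.15 for 30 and 0.13 for 35 tested members. Their quartiles were 0.05 and 0.20 with a tract and 0.08 and 0.19 without. A tract so defined can begin after the annotated start, as in Rpl11, so these groups do not separate TOP from other messenger RNAs. Some markers of other cells moved with fasting. In WT 5 of 7 fibroblast markers fell (71.4%, against 24.9% of all genes passing). Their summed signal relative to the array's 75th percentile ran from 298 to 432 in fed and from 247 to 376 in fasted WT muscle. Of 7 endothelial markers 1 fell, as did 1 of 5 of smooth muscle and pericytes, and 0 of 4 erythroid markers passed. Of 4 fat and 4 satellite cell markers tested, 1 rose and 1 fell in each list. Of 9 macrophage and leukocyte markers, 0 passed in WT by limma. In that fit 3 had an unadjusted p under 0.05 (33.3%, against 35.3% of all genes). In mFoxO-TKO fasting 2 of the 7 fibroblast (28.6%) and 2 of the 9 macrophage markers (22.2%) fell, where 11.1% of all genes passed. The fat marker Lep and the satellite cell marker Myf5 were not well above background on every array of any group. The part of these cells in the members' values was not tested.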

How the data were processed

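Total RNA was labelled with Cy3 and hybridised to 1-colour Agilent mouse arrays, per the labels. Per the submitters' processing notes the spots were quantified with Agilent Feature Extraction 9.5. The file headers name a later version. The deposited intensities used here are the scanner software's processed signals, from which background and a spatial trend had been removed on each array, per the file headers. The authors also deposited a table of scores with 18324 rows. These equal the processed signal times 1 factor per array within 2%, on a linear scale with a 75th percentile of 100. Other deposited columns are marks of 0 or 1 for signal well above background, saturation and uneven spots. No spot was saturated. The number of arrays limits the precision.

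Members and gene lists were chosen with earlier results of these data known. Probes were named through RefSeq accessions (GRCm38.p6 table); 28331 of 55681 probes had a symbol. The 75th percentile was taken over all 59305 non-control spots of an array, after which spots marked as uneven (0.143% to 3.28% per array) were left out. Probes that in 1 group or more were well above background on all arrays were kept (28571), and the brightest kept probe stands for a gene. limma 3.58.1 in R 4.3.3 fitted 4 group means to 16 arrays (lmFit, eBayes, 12 residual degrees of freedom) with Benjamini-Hochberg adjustment over 21281 genes, counting transcripts without a symbol by their accession or probe. Because spots were left out, 18 members lacked at least 1 array. Paralogue balance used exact permutation in Python 3.11.15. The fit was tested on simulated data. Named members are, per comparison, the passing ones up to 6 a direction, or the 3 furthest where under 3 passed, the 3 highest and lowest for the interaction, and a fixed set of stalk, disease-linked and paralogue genes; list genes are up to 4 passing ones per comparison. Larp1 and some members, such as Rps18, Rpl23 and those listed for groups that do not overlap, were named after their values were seen.

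Alternatives covered scaling, filter, probe choice, uneven spots, slide, replicate number, variance model and leaving out each array. Each array column of a slide holds 1 group, so column and group cannot be told apart. Slide assignment is as the file headers give it. The array files name mouse build mm9 in their headers, and no coordinates were taken from them. Some genes that the rule would name are not reported here.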

Additional observations from a re-analysis of the deposited data

Results flagged for a closer look

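Arrays far from the other 3 of their group were found among the named members and the FoxO genes, where 128 groups of 4 arrays were examined and chance alone marks about 1 in 20. On fasted mFoxO-TKO replicate 1, Rpl11 read -5.78 (others 7.10 to 7.33), Rpl21 read -4.40 (others 5.51 to 5.61) and Rpl7l1 read -1.43 (others no lower than -1.03). On fed mFoxO-TKO replicate 1, Rpl3l read 5.22 (others 6.30 to 6.36) and Rps19 read 5.32 (others 4.88 to 4.95). In fasted WT, Rpl27a read 4.17 on replicate 1 (others 6.58 to 6.73), Rps23rg1 read 2.24 on replicate 1 (others 1.77 to 1.83) and Rps6 read 6.57 on replicate 4 (others 6.46 to 6.48). In fed WT, Rplp0 read 7.26 on replicate 2 (others 7.54 to 7.57).

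The fasting effect differed between genotypes by the interaction term, in the fit with no block, for 0 of 86 members, but for 7 other genes named in the report or used to check the labels. Its values, mFoxO-TKO fasting minus WT fasting, were -2.25 for Sesn1, -1.80 for Myc, -1.65 for Foxo1, -1.31 for Taf1d, -1.12 for Mrpl41, -1.08 for Sbds and -0.70 for Nop56, an assembly factor of box C/D ribonucleoproteins. With replicate number as a block, the interaction of the member Rps23rg1 passed too.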

How the results depend on the processing

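Under 33 alternatives the count of passing members never exceeded 5 of 86, and the count of passing core genes never exceeded 3 of 76. In WT fasting, where 2 passed, 4 members passed after cyclic loess, 5 with the dimmest kept probe and 5 with slide as a block. Slide 1 alone gave 1, and leaving out 1 array gave 2 to 3. Over all genes, 5303 of 21281 passed as reported, 6130 after cyclic loess, 5022 with the dimmest kept probe and 6588 with slide as a block. With slide 1 alone 1366 of 19588 did, and leaving out 1 array gave 4300 to 5807. In mFoxO-TKO fasting, where 0 passed, 1 passed with the 75th percentile over probes well above background on all 16 arrays, after cyclic loess, in the authors' value table, with only probes well above background on all 16 arrays, and with the dimmest kept probe. There 2 passed with slide as a block, and leaving out 1 array gave 0 to 1. Calls over all genes were 2365 of 21281 as reported, 2946 with that percentile and 2987 after cyclic loess. They were 2178 with the dimmest kept probe and 3375 with slide as a block. The authors' value table gave 2385 of 13345, and only probes well above background on all 16 arrays gave 2113 of 15426. Leaving out 1 array gave 1473 to 2545. Between fasted genotypes, where 1 passed, 2 passed after cyclic loess and with slide as a block and 0 with slide 1 alone. Over all genes these settings gave 3304 and 3640 of 21281 and 484 of 19588, against 2652 of 21281 as reported.

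Every median over members moved by less than 0.14, the SD of the arrays' member medians within a group. Rps23rg1 passed for WT fasting under all 33 alternatives (1.35 to 1.66). It passed between fasted genotypes, as Rpl7l1 did for WT fasting, under 32, the exception being slide 1 alone, with 2 arrays a group. Among the values on the other side of 0 were those of the dimmest kept probe for Rpl22 in mFoxO-TKO fasting (0.42) and Eef2k in WT fasting (-1.56). Others changed sign without passing. With that probe choice Rpl13a was 0.58 between fed genotypes (adjusted p 0.093) and Rplp0 0.30 in mFoxO-TKO fasting (adjusted p 0.203), both negative in the main fit. The cause was not tested.

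Over the named members in the 5 contrasts, 23 of 5010 values crossed to passing and 2 to not passing; over the list genes, 93 and 274 of 5685. No paralogue balance passed under any alternative run, but the smallest possible exact p left little room for one to pass. Ribosome assembly genes passing in WT fasting numbered 30 to 42 under other scalings (39 as reported). With slide 1 alone they numbered 8, where 1366 of 19588 genes passed. Over all alternatives they numbered 0 to 18 in mFoxO-TKO fasting (9 as reported) and 1 to 29 between fasted genotypes (18 as reported). Calls over all genes ranged there from 105 to 3375 and from 484 to 3640.

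Replicate numbers are shared by the groups, and the labels do not say whether a number pairs samples. The arrays of a number share a row of a slide. Correlations of deviations ran from 0.06 to 0.39 over 24 same-number pairs (median 0.185), 23 of them above 0.1. The median was 0.111 for different numbers on the same slide and -0.144 across slides. Of 16 arrays, 11 correlated best with their own number. Arrays of the same number were thus more alike, and the main fit has no term for this. With the replicate block, 5 members passed for WT fasting, 1 for mFoxO-TKO fasting, 2 between fasted genotypes and 1 for the interaction (Rps23rg1, adjusted p 0.0354). Over all genes, 6619, 3288, 3608 and 789 of 21259 passed in these contrasts. The mean signal was not used here, so normexp was run on median signals, an alternative chosen after seeing the data, as was a 75th percentile taken after leaving out uneven spots.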
